A study of Mus musculus with 90 samples.

Results

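The genes described here are 10 apolipoprotein, lipoprotein assembly and lipase genes of the liver: Apoa1, Apoa2, Apoa4, Apoa5, Apoc2, Apoc3, Apob, Mttp, Lpl and Lipc. They were chosen by name: each gene with one of these symbols was taken from the 4 tables of estimated counts, and all 10 were found among 27654 gene IDs. All 10 passed the filter on low counts in every comparison. The study asked how caloric restriction changes the mouse liver over the day and how much of the change needs the glucocorticoid receptor (GR, gene Nr3c1) of hepatocytes. Livers of 90 male C57BL/6J mice, 12 weeks old at the start, gave 1 bulk RNA library each. The mice on caloric restriction got 40% less food, given at zeitgeber time 12 (ZT12, lights off). The control mice of the time series had free access to food until the final week, in which they were fed at night.

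The time series held 78 libraries at ZT0, ZT4, ZT8, ZT12, ZT16 and ZT20. Its WT mice carried GR fl/fl without Cre, and its GR LKO mice carried GR fl/fl with a Cre driven by the albumin promoter, so that cells of the liver other than hepatocytes kept the receptor gene. On caloric restriction it had 18 WT and 18 GR LKO livers, 3 per time point. On control diet it had 22 WT livers (4 at ZT8, ZT12, ZT16 and ZT20, 3 at ZT0 and ZT4) and 20 GR LKO livers (4 at ZT8 and ZT12, 3 at the other time points). The diet comparison was made at ZT12 in WT mice, with 3 calorically restricted livers and 3 controls. The titles of its controls say AL and their treatment label says NR. The corticosterone experiment held 3 WT livers after corticosterone (CORT, 5 mg/kg injected daily for 7 days at ZT11) and 3 controls, all taken at ZT12. The titles of these controls say NR, and the paper describes a vehicle group for the injections. Mice of the injection protocol were fed at night during it. In the time series each diet was a separate batch of libraries, so that diet and batch cannot be told apart there. Levels of its diets are tested against each other only at ZT12 in WT livers, as an alternative to the diet comparison. Elsewhere values of both diets stand side by side without a test of their levels.

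Apolipoproteins are the protein coat of lipoproteins, the particles that carry triglyceride and cholesterol through the blood. The liver builds very low density lipoprotein on Apob with the lipid transfer protein Mttp, and it secretes Apoa1, Apoa2 and Apoa4, which ride on high density lipoprotein or exchange between particles. In the circulation lipoprotein lipase (Lpl) splits the triglyceride of the particles with Apoc2 as its cofactor, Apoa5 promotes this step, Apoc3 slows it, and hepatic lipase (Lipc) acts on remnants and high density lipoprotein.

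The libraries held 10057544 to 17089004 estimated counts in the time series on control diet and 14235473 to 20788575 on caloric restriction. The diet comparison held 36442195 to 39492146 and the corticosterone experiment 13739631 to 16077943. Values are CPM (counts scaled to a common library total, with TMM factors), and each table was scaled on its own. The 10 genes together took 1.67% to 2.35% of the counts of a library. The livers fit their tissue label: the 7 hepatocyte markers summed to 69400 to 170000 CPM over the 90 libraries, with Alb the most abundant at a mean of 81500 CPM.

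Nr3c1, the gene deleted in GR LKO mice, was at 70.5 to 113 CPM in the 18 WT livers on caloric restriction and at 21.6 to 32.2 CPM in the 18 GR LKO livers. On control diet it was at 72.8 to 117 CPM in the 22 WT livers and at 16.2 to 28.8 CPM in the 20 GR LKO livers. No GR LKO library reached the lowest WT library, so each of the 78 libraries had the Nr3c1 level of its genotype label. Averaged over the 6 time points Nr3c1 fell by 1.84 on the log2 scale on caloric restriction (adjusted p 4.86e-28) and by 1.96 on control diet (9.47e-30). The WT livers of the diet comparison held 84.5 to 95.9 CPM and those of the corticosterone experiment 61.8 to 83.3 CPM of Nr3c1.

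A pair of libraries stood apart from their own groups. Over 8860 genes the mean correlation of a library with the others of its group was 0.9559 for control diet GR LKO ZT20 replicate 1 and 0.9634 for control diet WT ZT0 replicate 3, the lowest values of the 90, with 0.9655 next and a median of 0.9771. Their genotype labels fit Nr3c1. The first held 233 CPM of Apoa4, 104 CPM of Lpl and 323 CPM of Apoc2, against 25.3 to 32.1, 23.5 to 26 and 147 to 148 CPM in the other livers of its group, and it also had the highest cholangiocyte marker sum of all libraries (152 CPM). The second held 404 CPM of Apoa4 and 43.6 CPM of Lpl, against 82.1 and 91.6 CPM and 16.9 and 13.6 CPM in its group. The log2 fold changes of Apoa4 and Lpl for GR loss on control diet, where they rest on these libraries, are therefore given with and without them. Leaving out both together was an alternative chosen after seeing the data.

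The order of the 10 genes by level was read per kilobase of the longest of their transcripts annotated as principal. In the 4 WT livers on control diet at ZT12 it ran from Apoa2 at a mean of 12000 CPM per kb and Apoa1 at 7440 through Apoc3 at 2490, Apoa5 at 608, Apob at 320 and Apoc2 at 219 to Apoa4 at 79.6, Mttp at 69.5, Lipc at 69.2 and Lpl at 2.53 CPM per kb. The 3 genes Apoa4, Mttp and Lipc lay closer to each other than the spread of Apoa4 between mice. In the 3 WT livers on caloric restriction at ZT12 the order was Apoa2 (13100 CPM per kb), Apoa1 (4880), Apoc3 (3180), Apoa5 (652), Apob (459), Apoc2 (325), Apoa4 (115), Mttp (82), Lipc (76.5) and Lpl (1.48). Both lists have the same order, in which Apoa2 stood first and Lpl, at 6.09 CPM on caloric restriction, last.

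Loss of GR was tested in each diet at each time point and over the mean of the 6 time points with the edgeR quasi-likelihood test, and a gene is called where its adjusted p is under 0.05. The mean of the 6 time points is a genotype effect fitted as common to all of them. Over the mean of the 6 time points on caloric restriction 6 of the 10 genes were called, 2 higher (14.3% of all 13041 genes tested were higher) and 4 lower (15.7% of all were lower), against 30.0% of all genes called in either direction. On control diet 6 of 10 were called as well, 2 higher (9.50% of all 12834 genes) and 4 lower (8.10%), with 17.6% of all genes called. The median log2 fold change of the 10 genes was -0.04 in either diet. Higher in both diets were Apoa2 and Lpl, lower in both were Apoa1, Apoa4 and Apoc3, and Mttp was called lower on caloric restriction, while Apob was called so on control diet. The interaction of GR loss with diet over the 6 time points called 0 of 10 by edgeR and 0 by DESeq2, with 4 at an unadjusted p under 0.05, and 1.70% and 2.83% of all genes called by these tools. Without both libraries that stood apart it called 1, Apoa4.

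At single time points fewer genes passed. On caloric restriction 1 of 10 was called at ZT0 (0.502% of all genes called), 1 at ZT4 (0.690%), 2 at ZT8 (2.55%), 2 at ZT12 (15.3%), 4 at ZT16 (4.54%) and 2 at ZT20 (1.47%). On control diet edgeR called 1 of 10 at ZT4 (0.195%), 2 at ZT8 (1.43%), 2 at ZT12 (2.08%) and 1 at ZT16 (1.98%). At ZT0 it called 0 (0.536% of all genes), with 3 at an unadjusted p under 0.05 and 2 by DESeq2 (3.03% of all genes by that tool), and at ZT20 it called 0 (0.420%), with 4 unadjusted and 3 by DESeq2 (2.13%). The share called on caloric restriction at ZT12 was close to that of all genes. The interaction with diet called 0 of 10 by edgeR at every time point: at ZT0 (0% of all genes, 2 unadjusted, 1 by DESeq2 with 5.57% of the 3017 genes it tested), ZT4 (0%, 1 unadjusted, 0 by DESeq2 with 0.273%), ZT8 (0.0810%, 1 unadjusted, 1 by DESeq2 with 1.12%), ZT12 (1.01%, 2 unadjusted, 1 by DESeq2 with 4.09%), ZT16 (0.234%, 1 unadjusted, 0 by DESeq2 with 1.45%) and ZT20 (0%, 1 unadjusted, 0 by DESeq2 with 0.335%). Scaling by library size alone puts the median log2 fold change of all genes at 0.156 for GR loss on caloric restriction at ZT12 and at -0.122 for the diet comparison. Changes there are relative to the TMM scaling, and the sign of every called gene was the same under both scalings.

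Apoa4, an apolipoprotein of intestine and liver that exchanges between particles, fell most of the 10 genes over the 6 time points of either diet. Its levels in the WT livers on caloric restriction were 211, 199 and 80.8 CPM at ZT0, 214, 203 and 196 at ZT4, and 158, 133 and 246 at ZT8, then 219, 161 and 245 at ZT12, 310, 253 and 228 at ZT16, and 146, 148 and 150 at ZT20. In the GR LKO livers they were 25.9, 37.6 and 46.3 CPM at ZT0, 46.4, 41.9 and 37.1 at ZT4, and 42.5, 33.1 and 32.1 at ZT8, then 31.5, 52.5 and 40.8 at ZT12, 28, 48.7 and 45 at ZT16, and 31.8, 44 and 28.5 at ZT20. The highest GR LKO liver lay below the lowest WT liver at every time point, and also over all 36 livers. The mean was 38.5 CPM (SD 7.92) in 18 GR LKO livers and 194 CPM (SD 54.1) in 18 WT livers, 4.97-fold lower (log2 fold change -2.31, SE 0.12, adjusted p 7.43e-16). At single time points the log2 fold change of Apoa4 was -2.29 at ZT4 (adjusted p 0.000411), -2.31 at ZT8 (0.0067), -2.33 at ZT12 (0.00113), -2.70 at ZT16 (0.00134) and -2.06 at ZT20 (0.0036), and each of these calls held under all 12 alternatives tried. At ZT0 the log2 fold change was -2.15 (SE 0.38) with an adjusted p of 0.0777, which is not called, though the groups did not overlap. DESeq2 gave an adjusted p of 0.000504 there, and a fit shared by all libraries of the diet gave 8.23e-05. In whole liver fewer hepatocytes and less RNA per hepatocyte cannot be told apart. The hepatocyte marker sum at ZT12 on caloric restriction was 164000, 165000 and 170000 CPM in WT and 124000, 134000 and 115000 CPM in GR LKO livers, 5 of its 7 genes were lower and 1 higher over the 6 time points. On control diet at ZT12 the sum was 87800, 99400, 83000 and 91700 CPM against 74200, 69400, 79900 and 90200 CPM, with 2 of 7 lower then and again 5 lower and 1 higher over the 6 time points. The part of these cells in the results on GR loss was not tested.

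On control diet the WT livers held 82.1, 91.6 and 404 CPM of Apoa4 at ZT0, 102, 90.5 and 122 at ZT4, and 96.5, 105, 98.1 and 91.1 at ZT8, then 125, 182, 161 and 109 at ZT12, 146, 144, 229 and 106 at ZT16, and 90, 103, 119 and 83.4 at ZT20. The GR LKO livers held 43.3, 41.1 and 37.3 CPM at ZT0, 41.5, 30 and 32.8 at ZT4, and 35.8, 37.4, 40.8 and 37 at ZT8, then 26.3, 31.1, 40 and 23.4 at ZT12, 57.6, 42.5 and 34.9 at ZT16, and 233, 25.3 and 32.1 at ZT20. Apart from the 233 CPM of GR LKO ZT20 replicate 1, which stood above all WT livers but 1, no GR LKO liver reached a WT liver. Over the 6 time points Apoa4 fell by 1.54 on the log2 scale (SE 0.23, adjusted p 2.16e-06, means 46.2 and 131 CPM), and by 1.69 without both libraries that stood apart (4.35e-15). Single calls were a log2 fold change of -1.59 at ZT4 (adjusted p 0.0153), -1.38 at ZT8 (1.45e-05), -2.27 at ZT12 (0.00122) and -1.79 at ZT16 (0.0212). The call at ZT12 held under all 14 alternatives, and that at ZT8 under 13 of 14, the exception being a fit shared by all libraries of the diet (adjusted p 0.248, range 5.71e-69 to 0.248). At ZT0 the log2 fold change was -2.25 (adjusted p 0.167), and without WT replicate 3 it was -1.10 and called (0.0181), as it was with all libraries in the shared fit (-2.25, 0.00947). At ZT20 it was -0.01 (0.997), and without GR LKO replicate 1 it was -1.78 and called (0.0178).

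The other calls of Apoa4 on control diet were lost in several alternatives. At ZT4 the adjusted p was 0.0683 without GR LKO replicate 2, 0.072 without GR LKO replicate 3, and 0.0787, 0.0632 and 0.064 without WT replicates 1, 2 and 3. It was 0.0825 with a block for replicate number and 0.249 in the shared fit, in a range of 6.2e-19 to 0.249 over 12 alternatives, of which 5 kept the call. At ZT16 it was 0.0941 without GR LKO replicate 2, 0.0805 without GR LKO replicate 3 and 0.0547 without WT replicate 2, and 0.0855 with the block, in a range of 1.82e-10 to 0.0941 over 13 alternatives. The drop of Apoa4 was not shown to differ between the diets over the 6 time points (interaction -0.77, SE 0.26, adjusted p 0.118), but it was called larger on caloric restriction without both libraries that stood apart (-0.63, adjusted p 0.0138). At ZT8 the interaction of Apoa4 was -0.94 (adjusted p 0.22 by edgeR, 0.0144 by DESeq2).

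**Figure D1:**
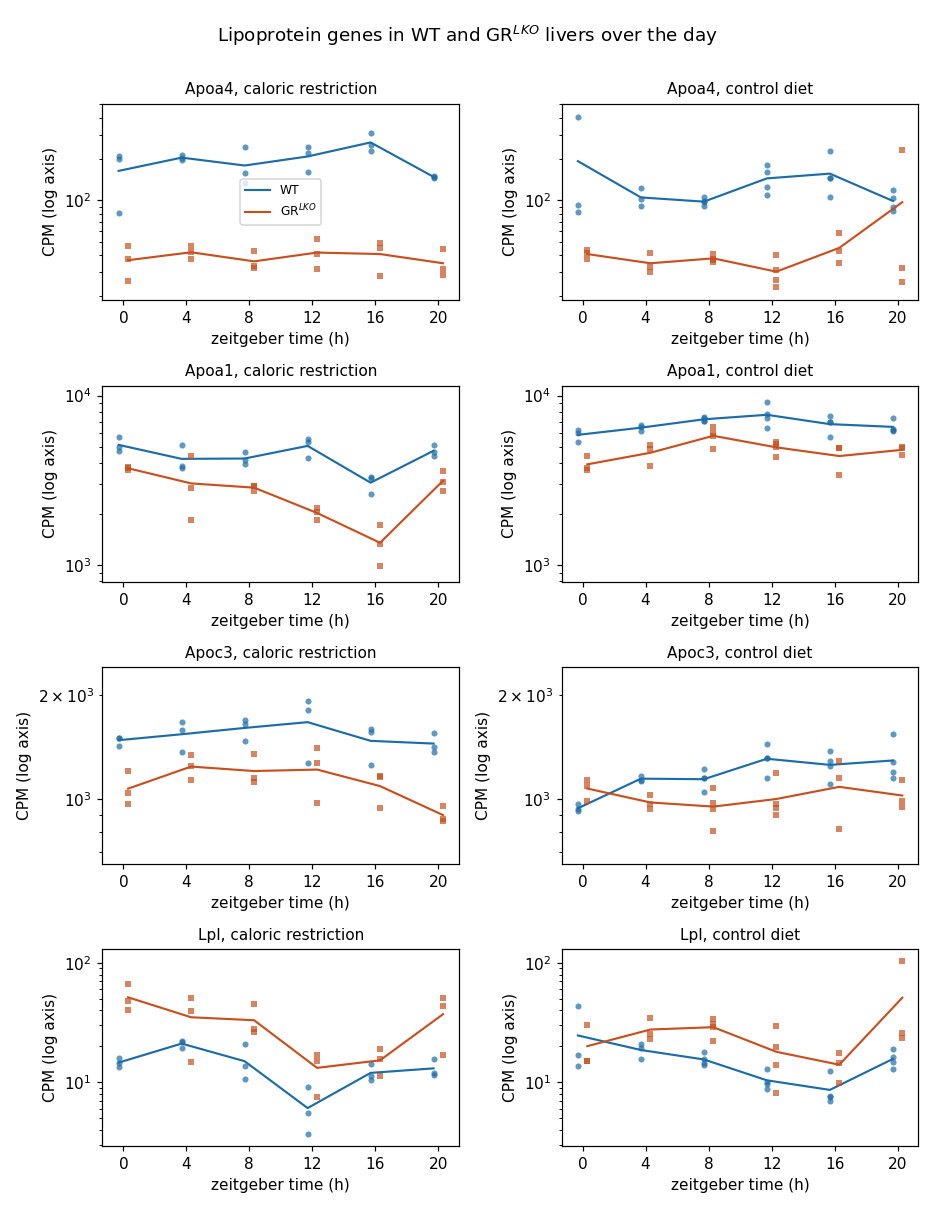
CPM on a log axis against zeitgeber time for Apoa4, Apoa1, Apoc3 and Lpl in the time series, with 1 point per liver, lines through the group means, WT in blue and GR LKO in orange, and 1 panel per gene and diet. On caloric restriction every GR LKO liver is below every WT liver for Apoa4 (means 38.5 and 194 CPM), while GR LKO replicate 1 at ZT20 on control diet stands at 233 CPM.

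Apoa1, the main protein of high density lipoprotein, was lower without GR in both diets. On caloric restriction the WT livers held 4280, 5580 and 5290 CPM of Apoa1 at ZT12 and 3270, 3290 and 2630 CPM at ZT16, against 2180, 2060 and 1850 CPM and 1730, 1340 and 992 CPM in the GR LKO livers. At both times the GR LKO livers lay below all WT livers of that time. Apoa1 fell by 1.32 on the log2 scale at ZT12 (SE 0.12, adjusted p 0.00088), which held under all 12 alternatives, and it was 2.26-fold lower at ZT16 (0.0199). The call at ZT16 was lost without GR LKO replicate 2 (adjusted p 0.0688) and without WT replicates 1 and 2 (0.0774 and 0.06), in a range of 5.5e-09 to 0.0774 over 12 alternatives. A smaller drop at ZT8 (4180, 3950 and 4630 CPM in WT and 2930, 2740 and 2920 CPM in GR LKO livers, log2 fold change -0.57) just passed (0.0483). It was lost without any GR LKO replicate (0.178, 0.171 and 0.189 without replicates 1, 2 and 3) and without WT replicates 1 and 3 (0.0559 and 0.108), and also with scaling by library size alone (0.0521), no filter on low counts (0.0578), the block for replicate number (0.116) and the shared fit (0.0945). Only 3 of 12 alternatives kept it, in a range of 2.5e-08 to 0.189. Not called were ZT0 (-0.45, 0.0783; 4680, 5700 and 4980 CPM in WT against 3640, 3750 and 3790 CPM), ZT4 (-0.48; 3740, 3820 and 5140 CPM against 4400, 2850 and 1850 CPM) and ZT20 (-0.56, 0.104; 4660, 4410 and 5110 CPM against 3580, 2750 and 3110 CPM). DESeq2 called ZT0 (2.33e-05) and ZT20 (0.000262). The groups overlapped at ZT4 and at no other of the 6 time points. Over the 6 time points the mean was 2690 CPM (SD 937) in GR LKO and 4410 CPM (SD 846) in WT livers (log2 fold change -0.77, SE 0.10, adjusted p 2.98e-07). From its highest to its lowest time point, ZT0 to ZT16, the mean of Apoa1 went from 3730 to 1350 CPM in GR LKO livers, a ratio of 2.75, and from 5120 to 3060 CPM in WT livers, a ratio of 1.67.

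At ZT12 on control diet Apoa1 was at 6430, 7840, 7380 and 9170 CPM in WT and 5000, 4330, 5310 and 5160 CPM in GR LKO livers. No GR LKO liver reached a WT liver, and the log2 fold change of -0.65 was called (adjusted p 0.0269). This call was lost without GR LKO replicates 1, 2 and 4 (adjusted p 0.0775, 0.0663 and 0.0609) and without WT replicates 2 and 3 (0.0805 and 0.0626) and with the block (0.0851), in a range of 4.65e-06 to 0.0851 over 14 alternatives. DESeq2 also called Apoa1 lower at the other 5 time points of this diet (adjusted p 4.95e-05 to 0.00647), and the shared fit did at ZT0, ZT16 and ZT20 (0.00858, 0.00212 and 0.0338). Over the 6 time points Apoa1 fell by 0.52 on the log2 scale (SE 0.05, adjusted p 3.13e-10, means 4810 and 6820 CPM). The interaction with diet was -0.66 at ZT12 (adjusted p 0.0977) and -0.25 over the 6 time points (0.258), neither called by edgeR. At ZT12 DESeq2 called it (0.00948), and edgeR did without WT replicate 4 of the control diet (-0.76, adjusted p 0.0493).

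Apoa2, the other abundant protein of high density lipoprotein, was higher without GR. On caloric restriction at ZT16 it was at 5030, 5510 and 4860 CPM in WT and 6760, 6570 and 7310 CPM in GR LKO livers, without overlap (log2 fold change 0.42, SE 0.09, adjusted p 0.0359). The call was lost without GR LKO replicates 1, 2 and 3 (adjusted p 0.0829, 0.0659 and 0.118) and without WT replicates 1 and 3 (0.123 and 0.103) and with the block (0.111), in a range of 0.000179 to 0.123. On control diet Apoa2 was called at ZT0 by DESeq2 (0.51, adjusted p 0.0381) and the shared fit (0.52, 0.0168) but not by edgeR on that time point alone. Across the day Apoa2 rose by 0.21 on the log2 scale in both diets, from a mean of 6080 to 7030 CPM on caloric restriction (adjusted p 0.000107) and from 5750 to 6660 CPM on control diet (0.00281). The groups overlapped over the whole day in both diets, and the interaction was 0.00 (adjusted p 0.995). Thus among the 3 apolipoproteins of high density lipoprotein, Apoa1 and Apoa4 were lower and Apoa2 was higher in GR LKO livers of either diet.

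Apoc3, which slows the clearing of triglyceride, was lower without GR. At ZT20 on caloric restriction its level was 1560, 1420 and 1370 CPM in WT and 875, 863 and 958 CPM in GR LKO livers, without overlap, a 1.58-fold lower level (log2 fold change -0.66, SE 0.10, adjusted p 0.0301). Leaving out GR LKO replicate 2 (adjusted p 0.0761) or WT replicates 1, 2 or 3 (0.135, 0.106 and 0.116) ended this call, as did the block (0.0777), in a range of 8.83e-11 to 0.135 over 12 alternatives. The log2 fold changes at the other 5 time points were between -0.31 at ZT4 and -0.47 at ZT12 and were not called by edgeR. DESeq2 called ZT0 (adjusted p 0.000112), ZT8 (0.00341) and ZT16 (0.0124), and the shared fit called ZT12 (0.0158) and ZT16 (0.0447). At ZT12 the values were 1930, 1270 and 1820 CPM in WT and 976, 1410 and 1270 CPM in GR LKO livers, which overlapped. As the mean of 6 time points Apoc3 fell by 0.46 on the log2 scale on caloric restriction (SE 0.06, adjusted p 8.37e-08, means 1120 and 1540 CPM) and by 0.22 on control diet (SE 0.05, adjusted p 0.00284, means 1020 and 1190 CPM). On control diet DESeq2 called Apoc3 at ZT4 (-0.23, 0.0183) and ZT12 (-0.40, 0.0122), the shared fit did at ZT12 (0.028), and edgeR did there without GR LKO replicate 3 (-0.49, 0.0419). The difference between the diets was -0.24 (adjusted p 0.103) over the 6 time points. At ZT0 it was -0.65 (SE 0.13, adjusted p 0.293 by edgeR and 0.000115 by DESeq2), with 966, 921 and 935 CPM in WT and 1140, 1090 and 990 CPM in GR LKO livers on control diet, and 1510, 1510 and 1430 CPM against 1040, 968 and 1210 CPM on caloric restriction.

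Apoa5 and Apoc2, which promote the action of lipoprotein lipase, were not called for GR loss at any time point or over the mean of 6. The mean over the 6 time points was 1180 CPM of Apoa5 in GR LKO and 1090 CPM in WT livers on caloric restriction (log2 fold change 0.10, adjusted p 0.318), and 1230 and 1220 CPM on control diet (0.02, adjusted p 0.859). At ZT12 on caloric restriction Apoa5 was at 1860, 2200 and 2060 CPM in GR LKO livers and 1710, 1550 and 1660 CPM in WT livers, without overlap (log2 fold change 0.31, adjusted p 0.0648). DESeq2 called it (0.00628), and so did edgeR with scaling by library size alone (0.46, adjusted p 0.0101). Apoc2 had a log2 fold change of -0.05 on caloric restriction (adjusted p 0.765) and 0.06 on control diet over the 6 time points. Single livers stood high for Apoc2, such as 456 CPM in WT ZT8 replicate 2 and 409 CPM in GR LKO ZT12 replicate 2 on caloric restriction, where the others of their groups held 180 to 215 and 200 to 255 CPM.

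Mttp, which loads lipid onto nascent Apob particles, was lower without GR on caloric restriction. At ZT16 it was at 391, 395 and 391 CPM in WT and 283, 295 and 288 CPM in GR LKO livers, groups with a narrow spread and no overlap (log2 fold change -0.44, SE 0.07, adjusted p 0.0174). The call was lost without GR LKO replicates 1, 2 and 3 (adjusted p 0.0578, 0.0537 and 0.058) and without WT replicates 1 and 2 (0.0743 and 0.0613) and with the block (0.0722), in a range of 1.73e-08 to 0.0743. Other time points were called by DESeq2 (ZT0, -0.24, adjusted p 0.0145; ZT20, -0.40, 0.0413) and by the shared fit (ZT12, -0.28, 0.0442; ZT20, -0.40, 0.0123). As the mean of 6 time points Mttp fell by 0.26 on the log2 scale on caloric restriction (SE 0.05, adjusted p 4e-05, means 242 and 293 CPM). On control diet its log2 fold change was -0.10 (adjusted p 0.144, means 276 and 296 CPM), though ZT20 was called by DESeq2 (-0.36, 0.00409) and the shared fit (-0.37, 0.0337), and the interaction with diet was not called (-0.16, adjusted p 0.214). Apob, the backbone of the particle, was not called at any time point. Across the day it fell by 0.14 on the log2 scale on control diet (SE 0.05, adjusted p 0.022, means 4540 and 5010 CPM), while on caloric restriction its log2 fold change was -0.04 (0.569, means 6050 and 6180 CPM). The interaction was 0.11 (adjusted p 0.449).

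Lpl, which most tissues other than adult hepatocytes express, was the least abundant of the 10 genes and was higher without GR. At ZT0 on caloric restriction its level was 16, 14.5 and 13.4 CPM in WT and 47.6, 66.9 and 40.1 CPM in GR LKO livers, without overlap (log2 fold change 1.82, SE 0.19, adjusted p 0.0224). The call was lost without WT replicates 1, 2 and 3 (adjusted p 0.0642, 0.0923 and 0.094) and with the block for replicate number (0.0635), in a range of 7.77e-17 to 0.094 over 12 alternatives, and the log2 fold change stayed between 1.59 and 1.97. At ZT4 the values were 21.9, 22.1 and 19.4 CPM in WT and 50.7, 39.8 and 14.8 CPM in GR LKO livers, and at ZT8 they were 10.6, 20.9 and 13.6 against 28.1, 26.2 and 45.1 CPM. At ZT16 they were 14.2, 11.4 and 10.4 against 11.4, 18.9 and 15.6 CPM, and at ZT20 15.8, 12 and 11.5 against 51.1, 43.8 and 16.8 CPM. None of these 4 time points was called by edgeR, and the groups overlapped at ZT4 and ZT16. At ZT12 edgeR did not call Lpl either (log2 fold change 1.12, adjusted p 0.0997), with groups that overlapped. DESeq2 called Lpl higher at ZT8 (1.14, adjusted p 0.00215), ZT12 (1.12, 0.0311) and ZT20 (1.53, 0.000438), the shared fit at ZT20 (0.0151) and the block at ZT12 (0.0222). EdgeR called it without 1 library at ZT4 (GR LKO replicate 3, 0.0491), ZT8 (WT replicate 2, 0.0498) and ZT20 (GR LKO replicate 3, 0.012). Averaged over the day Lpl rose 2.17-fold on caloric restriction, from a mean of 13.7 CPM (SD 5.18) to 30.9 CPM (SD 17.4), with a log2 fold change of 1.12 (SE 0.17, adjusted p 7.13e-06).

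On control diet at ZT8 Lpl was at 14.1, 14.5, 17.9 and 15.7 CPM in WT and 34, 22.1, 29.1 and 30.7 CPM in GR LKO livers, without overlap (log2 fold change 0.90, adjusted p 0.0121). The call was lost without WT replicates 1 and 2 (adjusted p 0.0546 and 0.0507), with the block (0.0606) and in the fit shared by all libraries of the diet (0.489), in a range of 6.01e-07 to 0.489 over 14 alternatives. Averaged over the day Lpl rose by 0.77 on the log2 scale (SE 0.18, adjusted p 0.00194, means 15.1 and 26.4 CPM), and by 0.70 without both libraries that stood apart (1.61e-05). At ZT20 the log2 fold change of Lpl was 1.73 (adjusted p 0.256), and 0.66 (0.177) without GR LKO replicate 1. DESeq2 and the shared fit, with that library, called it (0.0183 and 0.0112). At ZT0 it was -0.30 (0.81), and 0.41 (0.572) without WT replicate 3. Its interaction with diet, not called, was 0.35 over the 6 time points (adjusted p 0.578) and 0.42 without both libraries (0.328), and at ZT0 it was 2.11 (0.34) and 1.41 without control WT replicate 3 (0.314). Lipc was not called for GR loss at any time point. Its means over the 6 time points were 153 and 151 CPM in GR LKO and WT livers on caloric restriction (log2 fold change 0.05, adjusted p 0.623) and 137 and 130 CPM on control diet (0.07, adjusted p 0.587).

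Markers of other liver cells were read beside Lpl. The 8 Kupffer cell and macrophage markers (most abundant Clec4f, mean 39.7 CPM) summed to 153, 133 and 173 CPM in WT and 164, 256 and 123 CPM in GR LKO livers at ZT0 on caloric restriction, where Lpl was called. At ZT12 they summed to 45.4, 72.8 and 52.8 CPM in WT and 126, 101 and 128 CPM in GR LKO livers, with 4 of 8 called higher. At no other time point of that diet, and not over the mean of 6 in either diet, was a macrophage marker called. Lpl was at 5.54, 9.06 and 3.67 CPM in WT and 15.2, 16.9 and 7.57 CPM in GR LKO livers at ZT12 (adjusted p 0.0997). On control diet at ZT8, where Lpl was called too, they summed to 116, 114, 112 and 105 CPM in WT and 116, 146, 70.5 and 90.5 CPM in GR LKO livers. The 6 endothelial markers (most abundant Clec4g, mean 41.4 CPM) summed to 163, 149 and 180 CPM in WT and 213, 199 and 222 CPM in GR LKO livers at ZT12 on caloric restriction, and 4 of 6 were called higher over the 6 time points of that diet. At ZT8 on control diet they summed to 142, 125, 139 and 127 CPM in WT and 148, 161, 92.8 and 128 CPM in GR LKO livers. The 7 adipocyte markers summed to 1450, 2370 and 2810 CPM in WT and 5210, 4870 and 5150 CPM in GR LKO livers at ZT0 on caloric restriction, and to 3420, 3730, 3840 and 4340 CPM in WT and 6560, 5660, 5370 and 4870 CPM in GR LKO livers at ZT8 on control diet. Of the 3 adipocyte markers tested 2 were called higher at that time and 2 over the 6 time points of either diet, and at ZT8 on control diet Cfd had a mean of 23.4 CPM without GR, against 0.385 CPM with it. Most of the sum was Car3 (mean 3290 CPM), which hepatocytes also express, and Plin1, Lep and Retn were under 1 CPM in all 90 libraries. The part of these cells in the level of Lpl was not tested.

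Caloric restriction was compared with control diet in the 6 WT livers of the diet comparison, where 47.1% of 13062 genes were called. Of the 10 genes 3 were called, 2 higher (23.5% of all genes were higher) and 1 lower (23.6% were lower), and 5 had an unadjusted p under 0.05. The median log2 fold change of the 10 was 0.14. Apoc3 was at 1240, 1270 and 1260 CPM on control diet and 1900, 1870 and 1820 CPM on caloric restriction, a 1.48-fold rise (log2 fold change 0.57, SE 0.07, adjusted p 0.00077). Apoa5 was at 1400, 1480 and 1590 CPM on control diet and 2160, 2280 and 1880 CPM on caloric restriction, a 1.41-fold rise (0.50, SE 0.10, adjusted p 0.00525). Lpl was at 31.9, 24.2 and 15.3 CPM on control diet and 11.3, 13.1 and 8.71 CPM on caloric restriction, 2.17-fold lower (-1.12, SE 0.27, adjusted p 0.0132). Markers of cell types moved in this comparison too: 4 of 7 hepatocyte markers were called higher and 2 lower, 4 of 6 endothelial and 2 of 4 tested cholangiocyte markers higher, 2 of 6 stellate cell markers higher and 1 lower, and 1 of 8 macrophage markers lower. Of the adipocyte markers 1 of 2 tested was higher and 1 lower, and 1 of 1 enterocyte and 1 of 2 lymphocyte markers were lower. The part of these cells in the 3 calls was not tested. Each of the 3 calls held with any 1 library left out. The groups did not overlap for these 3 genes, but they did not overlap for Apoa2, Apob and Mttp either, which were not called. In the WT livers of the time series at ZT12, where diet cannot be told apart from batch, none of the 3 was called: the log2 difference was 0.33 for Apoc3 (adjusted p 0.116), 0.08 for Apoa5 (0.454) and -0.80 for Lpl (0.0627). There Apoa1 (-0.63, adjusted p 0.0102), Apoc2 (0.55, 0.00971) and Apob (0.50, 0.00715) were called instead.

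Among the genes not called in the diet comparison, Apoa4 was at 1750, 1930 and 1310 CPM on control diet and 1450, 1220 and 1080 CPM on caloric restriction (log2 fold change -0.42, SE 0.17, adjusted p 0.0763). It was called by DESeq2 (adjusted p 0.0299), with scaling by library size alone (0.0355) and with the block (0.0305). Apoa4 was also called without caloric restriction replicate 1 (-0.53, 0.0411) and without control replicate 3 (-0.57, 0.0212). The WT livers of the time series at ZT12 ran the other way for this gene. Their mean was 145 CPM in controls and 208 CPM in restricted mice, and Apoa4 was not among the genes called there. Diet cannot be told apart from batch in that series. Mttp was at 313, 335 and 338 CPM on control diet and 342, 389 and 422 CPM on caloric restriction (0.22, adjusted p 0.089), and it was called without caloric restriction replicate 1 (0.31, adjusted p 0.0163). The other 5 genes had log2 fold changes from -0.13 for Apoa1 (adjusted p 0.322) to 0.17 for Apoa2 (0.129). Among them Apoc2 was at -0.12 (means 260 and 282 CPM), against a called 0.55 in the time series. Apoa1 and Apob, also called there, had the same sign in both. In controls at ZT12 the level of Apoa4 set the diet comparison apart from the other experiments by more than any difference of diet or treatment within one. Its control mean was 1660 CPM in the diet comparison, 145 CPM in the time series and 86.6 CPM in the corticosterone experiment. The ratios of the first to the others were 11.5 and 19.2. Lpl was 2.29-fold and 2.58-fold higher in the controls of the diet comparison than in those of the other experiments, and the tables were scaled separately. The 6 enterocyte markers summed to 117, 119 and 103 CPM in the controls of the diet comparison and to 39.3, 48 and 30.5 CPM on caloric restriction. Fabp2 was the most abundant (mean 42.1 CPM over the 90 libraries), and Sis, Lct, Alpi and Cdx2 were under 1 CPM in all 90 libraries. The part of intestinal RNA in the level of Apoa4 was not tested.

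After corticosterone 0 of the 10 genes were called by edgeR (8.11% of all genes were called, 4.47% higher and 3.64% lower), with 2 at an unadjusted p under 0.05 and 2 called by DESeq2 (10.8% of all genes by that tool). The median log2 fold change of the 10 was 0.02. Apoa4 was at 94.2, 93.6 and 71.9 CPM in controls and at 161, 412 and 161 CPM after corticosterone. Every treated liver was above every control, and replicate 2 was far above the other treated livers. The fitted ratio was 2.83-fold (SE 0.38 on the log2 scale) with an adjusted p of 0.0559, and DESeq2 gave 0.0213. Without corticosterone replicate 2 the log2 fold change was 0.89 and called (adjusted p 0.0139), and with no filter on low counts it was called too (0.0448). Apoa1 was at 5950, 5820 and 6620 CPM in controls and 7940, 7490 and 7050 CPM after corticosterone, again without overlap (0.29, adjusted p 0.143 by edgeR and 0.0483 by DESeq2). Apoa2 was at 5330, 5230 and 5630 CPM in controls and 4660, 4920 and 4330 CPM after corticosterone (-0.22, adjusted p 0.223). Apoc3 and Mttp had log2 fold changes of -0.02 (adjusted p 0.905) and -0.04 (0.852). Replicate 2 also stood high for Apob, at 8870 CPM against 5730 and 6560 CPM in the other treated and 4950 to 5790 CPM in the control livers (0.41, adjusted p 0.193). Lpl was at 4.31, 9.01 and 14.4 CPM in controls and 9.18, 7.91 and 8.01 CPM after corticosterone (-0.15). Of the cell type markers 2 of 8 for macrophages and 1 of 7 for hepatocytes were called higher after corticosterone, and 1 each for endothelial cells, stellate cells, cholangiocytes and adipocytes lower.

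**Figure D2:**
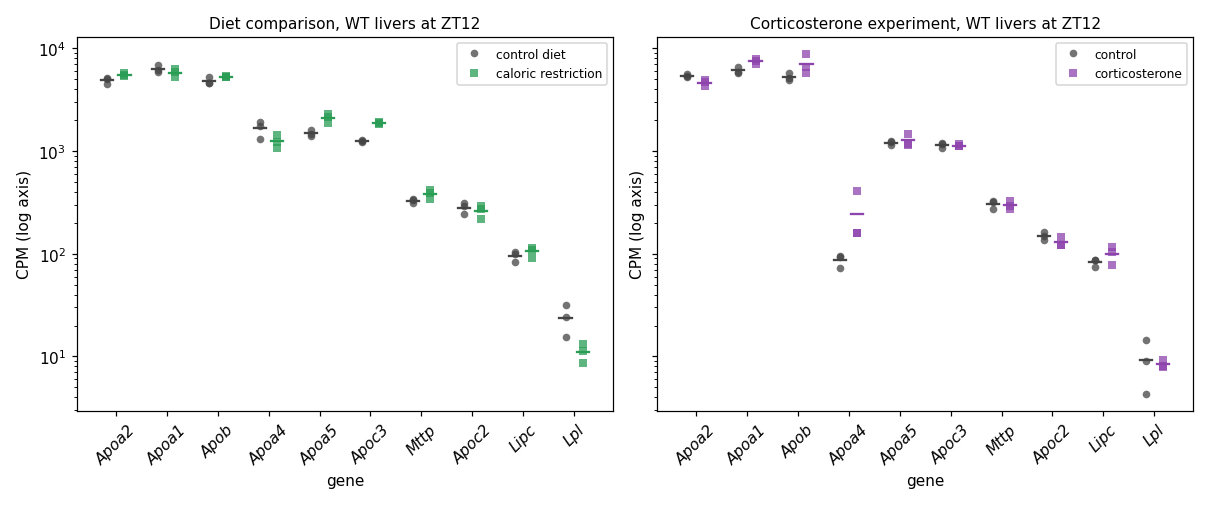
CPM on a log axis for the 10 genes in the diet comparison and the corticosterone experiment, WT livers at ZT12, with 1 point per liver and a bar at each group mean. Apoc3 and Apoa5 are higher and Lpl is lower on caloric restriction, and Apoa4 stands at 161, 412 and 161 CPM after corticosterone against 71.9 to 94.2 CPM in controls.

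Daily rhythms were tested in each series with JTK_CYCLE at a period of 24 h, and a gene is called rhythmic with an adjusted p under 0.05 and an amplitude over 0.1 on the VST scale (a log2-like scale). In WT livers on control diet 5 of the 10 genes were called rhythmic, against 24.0% of all genes tested. Apoa1 peaked at ZT12 (adjusted p 0.00988), Apoa5 at ZT16 (0.00509), Apoc2 at ZT20 (0.00374), and both lipases Lpl (0.0032) and Lipc (0.0223) at ZT4. In GR LKO livers on control diet JTK_CYCLE called 0 of 10 (20.9% of all genes), with 1 at an unadjusted p under 0.05, while the edgeR F test of time called 3 (42% of all genes by that test). In WT livers on caloric restriction 2 were called (20.7% of all genes), Apob (adjusted p 0.0345) and Mttp (0.00291), both with a peak at ZT16. In GR LKO livers on caloric restriction 2 were called (19.0% of all genes), Apoc2 at ZT12 (adjusted p 0.0293) and Lipc at ZT4 (0.0229). The edgeR F test of time called 6 and 7 of the 10 in these WT and GR LKO livers (64.3% and 60.5% of all genes by that test).

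Every one of these rhythm calls was lost in at least 1 of the fits that left out 1 replicate at all time points, which also called fewer of all genes (11.8% to 18% in WT livers on control diet and 2.15% to 4.03% on caloric restriction). In WT livers on control diet Apoa1 was lost without replicates 2 and 3 (adjusted p 0.273 and 0.182), Apoa5 without replicates 1 and 3 (0.0587 and 0.0526) and Lpl without replicate 2 (0.0648). Lipc was lost without replicates 1, 2 and 3 (0.161, 0.22 and 0.113) and, on its amplitude, without replicate 4 (0.0372). Apoc2 was lost without replicate 2 (0.175) and, on its amplitude, without replicate 3 (0.0303) and when WT ZT0 replicate 3 was dropped together with GR LKO ZT20 replicate 1 (0.00539). In WT livers on caloric restriction the adjusted p without replicates 1, 2 and 3 was 0.086, 0.32 and 0.909 for Apob and 0.164, 0.0515 and 0.0719 for Mttp, and the edgeR F test of time did not call Apob either (0.116). In GR LKO livers of that diet it was 0.443, 0.109 and 0.427 for Apoc2 and 0.14, 0.346 and 0.243 for Lipc. In WT livers on control diet that F test, which called 50% of all genes, called Apoc3 (0.00231) and Mttp (0.032), which JTK_CYCLE did not, and JTK_CYCLE called Apoa4 without replicate 3 (0.0399) and without both libraries that stood apart (0.0474). A change of rhythm by GR loss was called by limma for 0 of the 10 genes on caloric restriction (0.659% of all genes), with 2 at an unadjusted p under 0.05 (Apoa1 and Mttp) and 0 on log2 CPM. On control diet it was called for 0 as well (0.366%), with 1 unadjusted (Mttp) and 0 on log2 CPM. The rhythms called in WT and not in GR LKO livers were thus not shown to differ between the genotypes.

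The daily pattern in WT livers differed between the diets for 4 of the 10 genes by limma, against 26.6% of all genes. A constant shift between the batches does not enter this test. Apoa5 was at 1710, 1550 and 1660 CPM at ZT12 and 784, 778 and 599 CPM at ZT16 on caloric restriction, whereas on control diet it was at 1520, 1450, 1630 and 1510 CPM and at 1380, 1430, 1510 and 1420 CPM at these times. It thus dropped between ZT12 and ZT16 on caloric restriction and had no such drop on control diet. The fitted peak of Apoa5 was at 8.72 h on caloric restriction and 14.9 h on control diet, with amplitudes of 0.41 and 0.40 (adjusted p 0.000714), and this held in all 7 alternatives. Apoc2 had its fitted peak at 8.81 h on caloric restriction but at 18.9 h on control diet (adjusted p 0.00245), and its call was lost without replicate 2 (0.084, range 0.00238 to 0.084). Mttp had an amplitude of 0.37 on caloric restriction, against 0.11 on control diet, with peaks at 15.9 and 17.9 h (adjusted p 0.00313), and its call was lost without replicate 1 (0.0725, range 0.000549 to 0.0725). Its WT means ran from 237 CPM at ZT4 to 392 CPM at ZT16 on caloric restriction, against 272 to 327 CPM on control diet. Apob had its fitted peak at 16.4 h on caloric restriction and 2.37 h on control diet (adjusted p 0.029), and its call was lost without replicates 1, 2, 3 and 4 (0.0865, 0.112, 0.139 and 0.0663, range 0.0176 to 0.139). For Lpl the fitted peak was at 1.99 h on caloric restriction, against 2.01 h on control diet (adjusted p 0.984, and 0.891 without both libraries that stood apart).

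**Figure D3:**
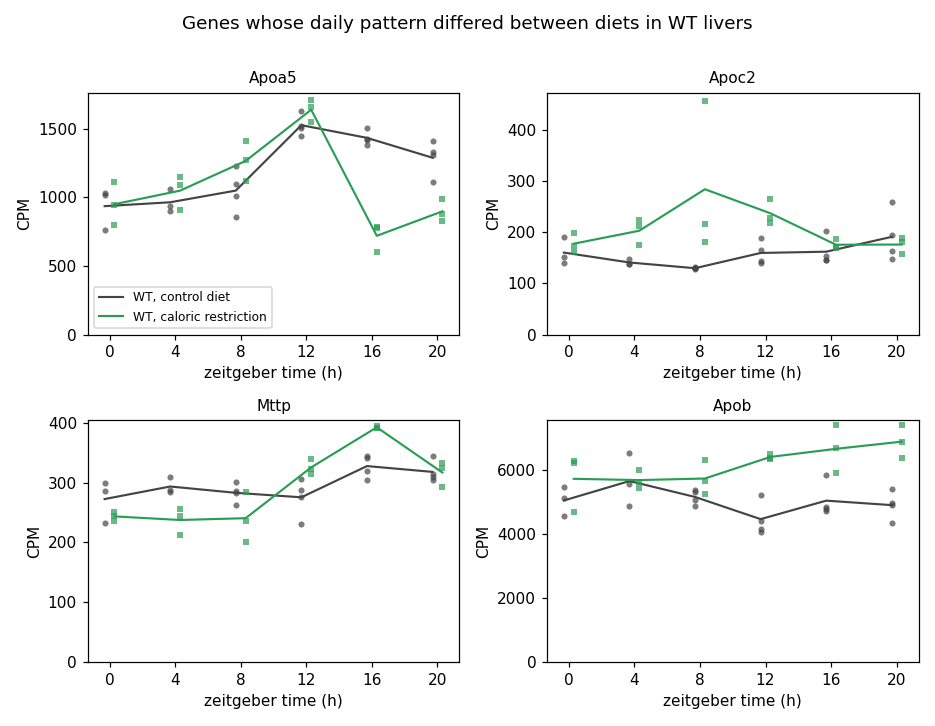
CPM on a linear axis from 0 against zeitgeber time for Apoa5, Apoc2, Mttp and Apob in WT livers of the time series, with 1 point per liver, lines through the group means and 1 colour per diet, each diet a separate batch of libraries. Apoa5 on caloric restriction is at 1550 to 1710 CPM at ZT12 and at 599 to 784 CPM at ZT16, while on control diet it stays at 1380 to 1630 CPM at both times.

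Of the 10 genes 4 lie in 1 cluster on chromosome 9 (build GRCm38, chr9:46228580-46271919, 43340 bases): Apoa1 (ENSMUSG00000032083, chr9:46228580-46230466, plus strand), Apoc3 (ENSMUSG00000032081, chr9:46232933-46235636, minus strand), Apoa4 (ENSMUSG00000032080, chr9:46240696-46243459, plus strand) and Apoa5 (ENSMUSG00000032079, chr9:46268633-46271919, plus strand). Of these 4 neighbours Apoa1, Apoc3 and Apoa4 were called lower over the 6 time points of either diet in GR LKO livers, and Apoa5 was not called. The cluster also holds 3 genes on the minus strand, Gm47528 and Gm10680 over Apoa4 and Gm47544 over Apoa5, which are not in the tables. For its libraries the paper names the guides of a stranded mRNA kit and of a TruSeq RNA kit. The counting is not stated to use strand, so reads of these genes may be among those of Apoa4 and Apoa5. The others are Apoa2 (ENSMUSG00000005681, chr1:171225054-171226379, plus strand), Apoc2 (ENSMUSG00000002992, chr7:19671579-19677941, minus strand) and Apob (ENSMUSG00000020609, chr12:7977648-8016835, plus strand). Mttp (ENSMUSG00000028158, chr3:138089854-138144968, minus strand), Lpl (ENSMUSG00000015568, chr8:68880491-68907448, plus strand) and Lipc (ENSMUSG00000032207, chr9:70798128-70952226, minus strand) complete the list. Mttp is overlapped by Trmt10a on the other strand, which had a median of 4.36 CPM, and by Gm43691, also on the other strand. Apoc2 is overlapped by Gm44805 on its own strand, and Lipc by Gm25149 on its own and by Gm3436 and Gm32017 on the other strand. Of these only Gm3436 is in the tables (median 0 CPM, at most 2.39 counts in a library), so that reads shared with the absent genes may be among those of the 10.

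RefSeq promoter windows (GRCm38.p6, from 250 bases before to 50 after the start of the gene in RefSeq) were found for 8 of the 10 genes, 11 windows in all, and none for Apoc3 and Lpl. The windows of Apoa4 (chr9:46240594-46240893, plus strand), Apoa1 (chr9:46228380-46228679, plus strand) and Mttp (chr3:138143369-138143668, minus strand) are shown because these 3 genes were called lower over the day on caloric restriction where GR was lost. These starts differ from the gene spans given above: the window of Mttp lies within its span, and those of Apoa4 and Apoa1 run past the start of theirs. Positions are counted from the RefSeq start, so that the match of Apoa4 at -110 lies inside its span. Capitals mark matches on either strand to AGAACA, a core of the glucocorticoid response element, AGGTCA, a nuclear receptor core, and TATAAA, the TATA box. On the minus strand AGAACA reads as TGTTCT here.
Apoa4: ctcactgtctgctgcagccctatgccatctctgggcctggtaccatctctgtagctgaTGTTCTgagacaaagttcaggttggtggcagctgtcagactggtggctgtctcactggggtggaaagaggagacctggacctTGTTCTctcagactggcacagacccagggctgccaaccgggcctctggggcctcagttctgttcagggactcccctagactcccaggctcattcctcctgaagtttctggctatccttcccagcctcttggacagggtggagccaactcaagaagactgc
Apoa1: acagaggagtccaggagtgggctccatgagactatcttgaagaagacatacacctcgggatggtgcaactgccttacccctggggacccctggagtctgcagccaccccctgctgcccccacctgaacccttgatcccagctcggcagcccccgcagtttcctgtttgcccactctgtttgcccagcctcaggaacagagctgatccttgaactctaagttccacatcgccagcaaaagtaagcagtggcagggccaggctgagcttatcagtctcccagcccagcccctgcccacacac
Mttp: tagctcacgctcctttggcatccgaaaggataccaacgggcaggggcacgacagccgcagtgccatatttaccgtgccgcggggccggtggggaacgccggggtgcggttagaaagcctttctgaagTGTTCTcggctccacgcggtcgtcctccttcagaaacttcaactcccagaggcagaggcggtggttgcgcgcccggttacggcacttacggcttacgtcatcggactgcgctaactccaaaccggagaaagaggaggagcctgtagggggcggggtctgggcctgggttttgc
AGAACA was found in the window of Apoa4 at -192 and -110 and in that of Mttp at -123, all on the minus strand, in that of Apoc2 at -161 on the minus and 20 on the plus strand, and in none of the other 8 windows. It occurs in 19% of all 32851 windows (6233). AGGTCA was in 3 of the 11 windows (16.3% of all) and TATAAA in 4 (13.6%), among them both windows of Apoa5, which overlap and hold the same site. The CCAAT box (CCAAT) was in 4 of the 11 (37.4% of all), and the E-box CACGTG in 2 (7.15%), both of Apoa5, where the windows overlap and hold the same site. The window of Apoa1 held none of the 5 motifs. A match describes letters in these windows and is not a site of binding.

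Likeness between genes was described over the 24 group means of the time series, with all 78 libraries, as the Pearson correlation of log2 CPM centred within each diet, among 8875 genes. The points share libraries and batches, and no p is given. They also keep the difference between the genotypes. A gene that is lower in GR LKO livers is therefore like Nr3c1, the deleted gene, by design. Among all these genes Nr3c1 itself was most like Apoa4 (r 0.94), with Amy1 and Slc3a1 next (both 0.91). Most like Apoa1 were Mug1 and Gulo (both 0.89) and F11 (0.88), and most like Apoa2 were Acaa1a (0.92), Naxe (0.91) and Dcxr (0.9). Yaf2 was most like Apoa5 (0.93), Phf20 most like Apoc2 (0.79), and Prodh and Hopx most like Apoc3 (both 0.86). For Apob, Mttp, Lpl and Lipc the first genes were Prr14l (0.83), Ahcyl1 (0.91), Grk3 (0.92) and 1700001C19Rik (0.85). Acad8 and Pik3c3 were also at 0.85 for Lipc. Among the 10 genes themselves the highest correlations were 0.81 between Apoa4 and Apoc3, 0.71 between Apoa5 and Apoc2 and 0.67 between Apoa1 and Apoa4, and the lowest were -0.73 between Apoa4 and Apoa2, -0.72 between Lpl and Mttp and -0.7 between Lpl and Apoc3.

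A wider list of 53 other genes of lipoprotein metabolism was counted beside the 10, and 52 of them passed the filter (Apod did not). In the diet comparison 27 of the 52 were higher and 10 lower on caloric restriction (23.5% and 23.6% of all genes), with a median log2 fold change of 0.28. Vldlr, a receptor for triglyceride-rich particles, rose by 2.64 (1.28 to 8.02 CPM), and Sort1, a sorting receptor for Apob particles, fell by 2.21 on the log2 scale (21.4 to 4.63 CPM). For GR loss over the whole day caloric restriction had 13 higher and 15 lower (14.3% and 15.7% of all genes), and control diet had 9 higher and 8 lower (9.50% and 8.10%). Vldlr rose by 1.71 on the log2 scale on caloric restriction (11.3 to 38.2 CPM) and by 1.89 on control diet (2.57 to 9.19 CPM). Pltp, the phospholipid transfer protein, rose by 1.31 (38.6 to 84.2 CPM) and 1.37 (49.3 to 127 CPM), and Cd36, a fatty acid transporter, rose 1.96-fold (37.1 to 71 CPM) and 2.27-fold (26.8 to 62.6 CPM). Of the 6 other apolipoproteins tested, 4 fell on caloric restriction (Apom by 0.56, Apoh by 0.34, Apoc4 by 0.27 and Apof by 0.19 on the log2 scale), and the same 4 fell on control diet while Apoe rose by 0.13. Angptl4, an inhibitor of Lpl, fell by 0.74 on caloric restriction (80.1 to 38.3 CPM), and on control diet its log2 fold change was -0.45 (adjusted p 0.16, 45.2 and 30.7 CPM). Single time points of Angptl4 differed from this mean: on caloric restriction its log2 fold change was -1.79 at ZT12 (263 and 76.5 CPM), on control diet it was -1.13 at ZT16, and at ZT16 the interaction with diet was 1.65 (adjusted p 0.00108). After corticosterone 6 were higher and 2 lower (4.47% and 3.64% of all genes). Angptl4 rose by 2.25 (30.5 to 145 CPM), and Angptl8, another inhibitor, fell by 3.13 on the log2 scale (99 to 11.4 CPM), while Lpl was not called.

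At ZT12 alone loss of GR left 12 of the wider list higher and 8 lower on caloric restriction (15.3% of all genes called), with 2 higher and 2 lower on control diet (2.08%), where Hnf4a, a transcription factor that acts on many apolipoprotein genes, fell by 0.48 on the log2 scale (661 to 477 CPM). Rhythmic by JTK_CYCLE were 26 of the 53 in WT and 26 in GR LKO livers on control diet (24.0% and 20.9% of all genes), and 21 and 30 on caloric restriction (20.7% and 19.0%). Their rhythm differed between the diets for 20 of 52 (26.6% of all genes), and by GR loss for 1 of 52 on either diet (0.659% on caloric restriction and 0.366% on control). Of the other marker lists 1 stellate cell, 1 cholangiocyte, 1 enterocyte and 1 lymphocyte gene were called higher over the 6 time points without GR on caloric restriction, and 1 enterocyte gene on control diet. The 6 stellate cell markers (most abundant Dcn, mean 121 CPM) summed to 80.9 to 451 CPM and the 5 cholangiocyte markers (Spp1, 39.4 CPM, with Epcam under 1 CPM throughout) to 22.3 to 152 CPM. The 7 exocrine pancreas markers had a median sum of 0.376 CPM and reached 735 CPM in caloric restriction WT ZT12 replicate 3, where Apoa4 was at 245 CPM, the highest of its group, and Apoa1 at 5290 CPM, between the others of its group. The 5 skeletal muscle markers reached 139 CPM in caloric restriction GR LKO ZT12 replicate 1, where Apoa4 was at 31.5 CPM. The 4 neutrophil markers (S100a9, 0.451 CPM, with Ngp and Camp under 1 CPM throughout) summed to at most 3.69 CPM and the 5 lymphocyte markers (Cd79a, 0.733 CPM) to at most 5.9 CPM.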

How the data were processed

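Bulk RNA-seq was read from 4 tables of 90 livers. The authors deposited estimated counts per gene, not normalized, from reads checked with FastQC 0.11.9, quantified with Salmon 1.8.0 and summed with tximport 1.18.0; the authors name DESeq2 1.30 for their tests. The submitters' processing notes name mm10, and the annotation version is not given in the sources used here. Of 27654 gene IDs, 27244 matched a symbol. A table of VST values for 6 libraries was not used. No pair of the 102 pairs of libraries within groups was a duplicate (lowest chi-square per degree of freedom 11).

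Counts were rounded and tested in R 4.3.3 with edgeR 4.0.16 (quasi-likelihood F test, TMM, filterByExpr at a minimum count of 10), on the libraries of each comparison. Adjusted p are Benjamini-Hochberg values over all genes tested, with calls made under 0.05. Per-library values are CPM with the TMM factors of their table. A prior count of 2 was used only in the log2 CPM alternative of the rhythm tests. The change over the mean of 6 time points was the genotype term of a fit with a term for each time point. It is an effect taken as common to all time points. Interactions of genotype with diet were the product term of a fit with both diets, in which a shift shared by a diet drops out. Rhythms were tested with JTK_CYCLE, written in R, on VST values (DESeq2 1.42.0) and their differences with limma 3.58.1 (F test of group with sine and cosine of time). The procedures were tested on simulated data. Alternatives were DESeq2, RLE factors, library size alone, no filter, a block for replicate number, a fit shared by all libraries of a diet, and leaving out each replicate. At depths of 10057544 counts or more, the lowest level among the 10 genes (Lpl, under 5 CPM in single livers) rests on at least 59.73 estimated counts. Some markers and genes of the wider list lay lower.

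The 10 genes, the wider list and the markers were chosen with earlier results of these data known. From the wider list the genes named came from the up to 4 with the largest change among those called with at least 5 CPM in a group; not all are reported here, and Hnf4a, Apoe, Apom, Apoh, Apoc4 and Apof were also named after their values were seen where the rule did not take them. For likeness the first 3 genes of each member were taken, and not all of them are named here.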

Additional observations from a re-analysis of the deposited data

Results flagged for a closer look

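In groups of 4 livers, a value was singled out where its gap to the next liver took more of the range of the group than the 95% limit of Dixon's test for 4 values. Among 60 combinations of gene and group (10 genes in 6 groups) this held for 4, where chance gives about 1 in 20. Apoa1 was at 7340 CPM in control diet WT ZT20 replicate 1, with 6210, 6280 and 6320 CPM in the others. Apoc2 was at 202 CPM and Apob at 5830 CPM in control diet WT ZT16 replicate 2, with 146, 146 and 153 CPM and 4710, 4770 and 4830 CPM in the others. Lpl was at 12.4 CPM in control diet WT ZT16 replicate 3, with 7.02, 7.51 and 7.65 CPM in the others.

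The daily pattern of 4 genes differed between the diets in WT livers by limma's test of the difference itself, with adjusted p of 0.000714 for Apoa5, 0.00245 for Apoc2, 0.00313 for Mttp and 0.029 for Apob. Each diet was a separate batch of libraries, and a part of the batches in the daily pattern was not tested.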

How the results depend on the processing

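Of 138 alternatives to the counts of called genes that left out no single replicate, 102 gave a count within 1.5 times the one reported, and of 193 that left out 1 replicate, 144 did. Over 291 alternatives to the log2 fold changes of called genes, 233 stayed past the threshold, 58 did not, and 0 turned sign. For GR loss on caloric restriction DESeq2 called 5 of the 10 genes at ZT0 (edgeR 1), 4 at ZT8 (2), 4 at ZT12 (2) and 5 at ZT20 (2), with 3.06%, 5.27%, 17.5% and 5.35% of all genes (edgeR 0.502%, 2.55%, 15.3% and 1.47%). On control diet DESeq2 called 2 at ZT0 (0), 3 at ZT4 (1), 2 at ZT16 (1) and 3 at ZT20 (0), with 3.03%, 1.53%, 5.08% and 2.13% of all (0.536%, 0.195%, 1.98% and 0.420%). After corticosterone DESeq2 called 2 (10.8% of all) and edgeR without a filter 1 (5.16%), against 0 (8.11%). For the interaction DESeq2 called 1 each at ZT0, ZT8 and ZT12 (0), with 5.57%, 1.12% and 4.09% of the genes it tested. A block for replicate number gave 0 at ZT0, 1 at ZT8, 2 at ZT16 and 1 at ZT20 on caloric restriction (9, 151, 287 and 76 of all genes, or 0.0741% at ZT0, 2.41% at ZT16 and 0.629% at ZT20), and 0 at ZT4, 1 at ZT8, 1 at ZT12 and 0 at ZT16 on control diet (0.00846%, 0.311%, 0.884% and 0.273%). A fit shared by all libraries of the diet gave 2, 1, 4 and 4 at ZT0, ZT8, ZT12 and ZT20 on caloric restriction (1.3%, 5.55%, 21.5% and 8.64% of all), and 3, 0, 0, 2 and 3 at ZT0, ZT4, ZT8, ZT16 and ZT20 on control diet (4.91%, 0.374%, 0.281%, 3.65% and 3.02%). Library size alone and no filter each gave 1 at ZT8 on caloric restriction (2.84% and 1.87% of all). Without the pair of libraries least like their groups, an alternative added after seeing the data, the interaction over 6 time points called 1 (0). The edgeR F test of time called 3 rhythmic in GR LKO livers on control diet (0), and on caloric restriction 6 in WT and 7 in GR LKO livers (2 and 2), with 42%, 64.3% and 60.5% of all genes (JTK_CYCLE 20.9%, 20.7% and 19.0%). Leaving out 1 replicate gave 3 to 5 called genes in the diet comparison. On caloric restriction it gave 0 to 1 at ZT0, 1 to 2 at ZT4, 1 to 3 at ZT8, 2 to 2 at ZT12, 1 to 3 at ZT16 and 1 to 3 at ZT20. On control diet it gave 0 to 1 at ZT0, 0 to 1 at ZT4, 1 to 2 at ZT8, 1 to 3 at ZT12, 0 to 1 at ZT16 and 0 to 1 at ZT20. It gave 0 to 1 after corticosterone and for the interaction at ZT12, and 0 for the other 5 interactions. For rhythms it gave 1 to 4 in WT livers on control diet and 0 in the other 3 series, and for changes of rhythm 2 to 3 by diet and 0 by GR loss. Apart from rhythms in WT livers, the share of all genes called in these fits is not given here. These counts are therefore not read as a result about the 10 genes. The cause of these differences was not tested. Without TMM scaling 252 of 280 group means stayed within 1 SD (ratio 0.861 to 1.13).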
